A study of Homo sapiens with 24 samples.

Results

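The 32 genes described here encode chaperones of the endoplasmic reticulum, enzymes that form disulfide bonds there, factors that dispose of misfolded proteins, sensors of unfolded protein, and proteins of translocation and export. They were chosen by gene symbol from a list of this pathway, and all 32 were found among the 18889 genes of the deposited table. The list was written with earlier results of these data known, so shares of all genes set beside its counts are a description with no test. By role there were 11 lumenal chaperones and co-chaperones, 5 disulfide isomerases and oxidase, 8 degradation factors, 5 sensors and transcription factors, and 3 genes of translocation and export. RNA-Seq was done on 24 cultures of 3 human lines of estrogen receptor-positive breast cancer, named HCC1500, MDA-MB-175 and ZR-75-30. Each line was grown for 48 hours in 5 mM glucose, the low glucose control, or in 25 mM glucose, called high glucose, with 4 cultures per group and 6 groups. By the study's methods the media of both conditions held no serum, and cells had first been adapted to low glucose. Osmolarity controls with mannitol are not among these cultures, so glucose and osmolarity cannot be told apart, and each line stands for its own tumour of origin. Each value compares a gene's share of the RNA of a whole culture, so amounts of RNA per cell are not measured. A change in all cells and a change in part of them cannot be told apart.

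The endoplasmic reticulum folds and glycosylates proteins on their way to the cell surface, and secretory cells such as those of the breast epithelium make heavy use of it. When unfolded protein builds up, the chaperone BiP (HSPA5) leaves 3 membrane sensors, IRE1 alpha (ERN1), PERK (EIF2AK3) and ATF6, which then signal. IRE1 alpha splices the mRNA of the transcription factor XBP1, PERK slows translation and raises ATF4, and ATF6 is cut to release a transcription factor. Spliced XBP1 and cleaved ATF6 raise chaperones and degradation factors through short promoter elements. Gene-level values do not tell spliced from unspliced XBP1 mRNA and do not measure kinase activity or cleavage.

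Of these genes, 28 were matched to RefSeq promoters (GRCh38.p14), each running from 250 bases before to 50 bases after a transcription start. Elements of 3 kinds were searched on both strands. The endoplasmic reticulum stress element is CCAAT and CCACG with 9 free bases between them, its second form is ATTGG and CCACG with 1 free base between them, and the XBP1/ATF6 element is TGACGTGG. The first was in promoters of 8 of the 28 genes (HSPA5, HSP90B1, CALR, CANX, CRELD2, PDIA6, XBP1 and SERP1), against 25 of 27305 genes in the whole table, or 0.0916%. The second form was in 3 (HYOU1, SDF2L1 and HERPUD1) against 0.0696% of all genes, and TGACGTGG was in HYOU1 alone against 0.927%, where it overlaps the second form. Counted over promoters in place of genes, 0.0769%, 0.0541% and 0.729% of 35116 held the respective element. The windows below hold the first element (HSPA5, HSP90B1, XBP1 and CRELD2) or its second form (HERPUD1 and SDF2L1). HSPA5 was called higher at high glucose in ZR-75-30, where XBP1 was called lower. HERPUD1 was called higher in MDA-MB-175, where CRELD2 and SDF2L1 were called lower. HSP90B1 was called lower in MDA-MB-175 alone, where HSPA5 was not called. The matched element is in capitals, and each window is read 5′ to 3′ on the strand of its gene.
HSPA5 (chr9:125241379-125241421, minus strand): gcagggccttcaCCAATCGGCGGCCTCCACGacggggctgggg
HSP90B1 (chr12:103930309-103930351, plus strand): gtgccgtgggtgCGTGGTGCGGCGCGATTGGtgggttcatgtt
XBP1 (chr22:28800591-28800633, minus strand): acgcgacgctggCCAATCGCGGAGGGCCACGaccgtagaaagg
CRELD2 (chr22:49918542-49918584, plus strand): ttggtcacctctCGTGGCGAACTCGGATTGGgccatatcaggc
HERPUD1 (chr16:56932013-56932047, plus strand): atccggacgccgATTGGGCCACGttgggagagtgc
SDF2L1 (chr22:21642102-21642136, plus strand): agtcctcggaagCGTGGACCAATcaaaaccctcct
In HSPA5, XBP1 and HERPUD1 the element reads forward, and in HSP90B1, CRELD2 and SDF2L1 it lies in reverse. It ends 48 bases before the start in HSPA5, 34 in XBP1, 62 in CRELD2 and 71 in HSP90B1, which holds another copy farther out. A match is a description of these letters, not a measured binding site.

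The deposited values are whole reads divided by 1 factor per sample, here called normalised read counts, and 9140024 to 17998819 reads per culture stood behind them. The floor of detection was set at 3 reads, which are 0.953 to 2.29 normalised counts, and it covers counting error only. In HCC1500 the low glucose cultures had 13190982 to 17998819 reads and the high glucose cultures 9423472 to 12140912, so depth and glucose moved together in that line. All 7 luminal markers were expressed in every culture: ESR1, which encodes the estrogen receptor, lay at 255 to 338 in MDA-MB-175, 533 to 643 in ZR-75-30 and 2796 to 3962 in HCC1500. Of the markers of other cell types in the table, COL1A1 was the highest, at 67.1 to 256 over all cultures. MDA-MB-175 also held the endothelial markers VWF (32.1 to 55.6) and CDH5 (17.1 to 33.3). The fibroblast markers COL1A2 (8.2 to 21.3) and COL3A1 (8.65 to 22.9) and the basal marker TP63 (7.36 to 15.3) were read there too. In HCC1500 COL3A1 was at 5.4 or more and the leukocyte marker CD14 reached 26.7, and in ZR-75-30 VWF reached 10.7. DCN reached 2.03 in MDA-MB-175 and was at 0.743 or less in ZR-75-30 and HCC1500.

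One culture stood apart, HCC1500 high glucose replicate 3, whose normalised counts summed to 7319781 against 5559394 to 5716906 in the other 7 HCC1500 cultures. For 29 of the 32 genes its value was outside the range of those 7 cultures. Against the other 3 high glucose cultures it was above all in 20 genes, below all in 11 and within their range in 1 (ERO1L). The direction went with transcript length: all 11 genes with a canonical transcript under 2500 bases were above, and 6 of the 7 genes of at least 5000 bases were below. Over the 32 genes, which are not independent replicates, the Spearman correlation of the log2 difference with length was -0.86. SDF2L1 (825 bases) read 281 in replicate 3 and 78.2 on average in the other 3, whereas ERN1 (7895 bases) read 20 against 137. The median absolute difference of the 32 genes from the other cultures of the group was 0.61 log2 units in this culture and at most 0.22 in any of the other 23. How this came about was not tested. HCC1500 results are therefore given with all 8 cultures and without this one, and with all 8 the only genes of the 32 called in HCC1500 were HSPA5, DNAJB9, HERPUD1 and PDIA4.

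**Figure D1:**
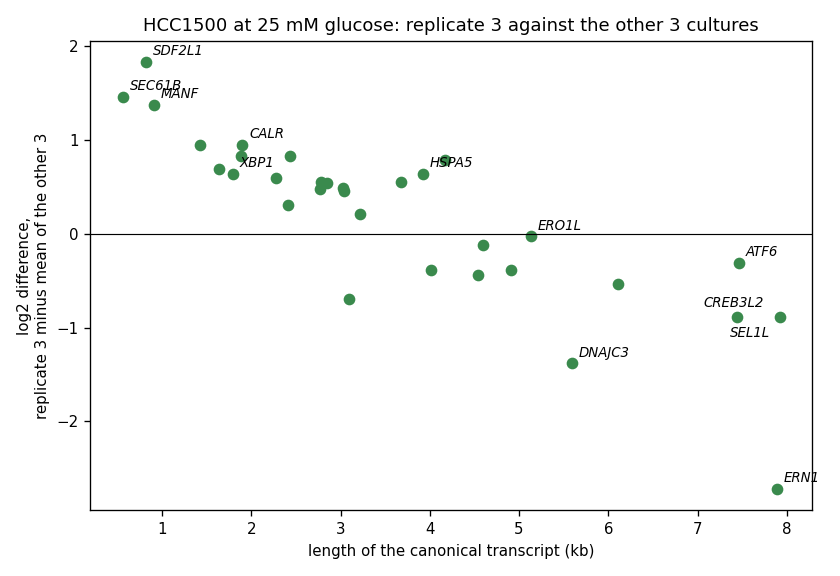
Each point is one of the 32 genes in HCC1500 at 25 mM glucose. The horizontal axis is the length of its canonical transcript in kb, and the vertical axis the log2 difference of replicate 3 from the mean of the other 3 cultures. Short transcripts lie above the line at 0 (SDF2L1 at 1.83) and long ones below (ERN1 at -2.72).

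At low glucose, levels were compared between genes as normalised read count per kb of the canonical transcript. XBP1 stood first in every line, at 12207 ± 188 (SD, n = 4) in ZR-75-30, 11337 ± 89.3 in MDA-MB-175 and 6945 ± 77.2 in HCC1500. It took 0.324 to 0.338% of all reads in MDA-MB-175 at low glucose, while the 32 genes together took 1.02 to 1.05%. CALR (calreticulin, a calcium-binding lectin chaperone) and P4HB (the prolyl hydroxylase beta subunit, itself a disulfide isomerase) came next. In MDA-MB-175 they reached 2305 ± 130 and 2088 ± 139 per kb, with overlapping cultures, and in HCC1500 3927 ± 110 and 4016 ± 161, again overlapping. HSP90B1, PDIA3, HSPA5 and CANX followed in MDA-MB-175, at 1688 ± 33.7, 1181 ± 35.0, 1149 ± 18.0 and 1059 ± 29.7 per kb, of which PDIA3 and HSPA5 overlapped. Near the bottom were ERN1, at 5.00 ± 0.738 to 8.20 ± 0.722 per kb in the 3 lines, DERL3, DERL2 at 24.8 ± 2.20 to 28.3 ± 2.87, and DNAJC3, which lay below DERL2 in HCC1500 (17.1 ± 1.59), overlapped it in ZR-75-30 (26.4 ± 2.93) and was above it in MDA-MB-175 (56.8 ± 3.27).

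**Figure D2:**
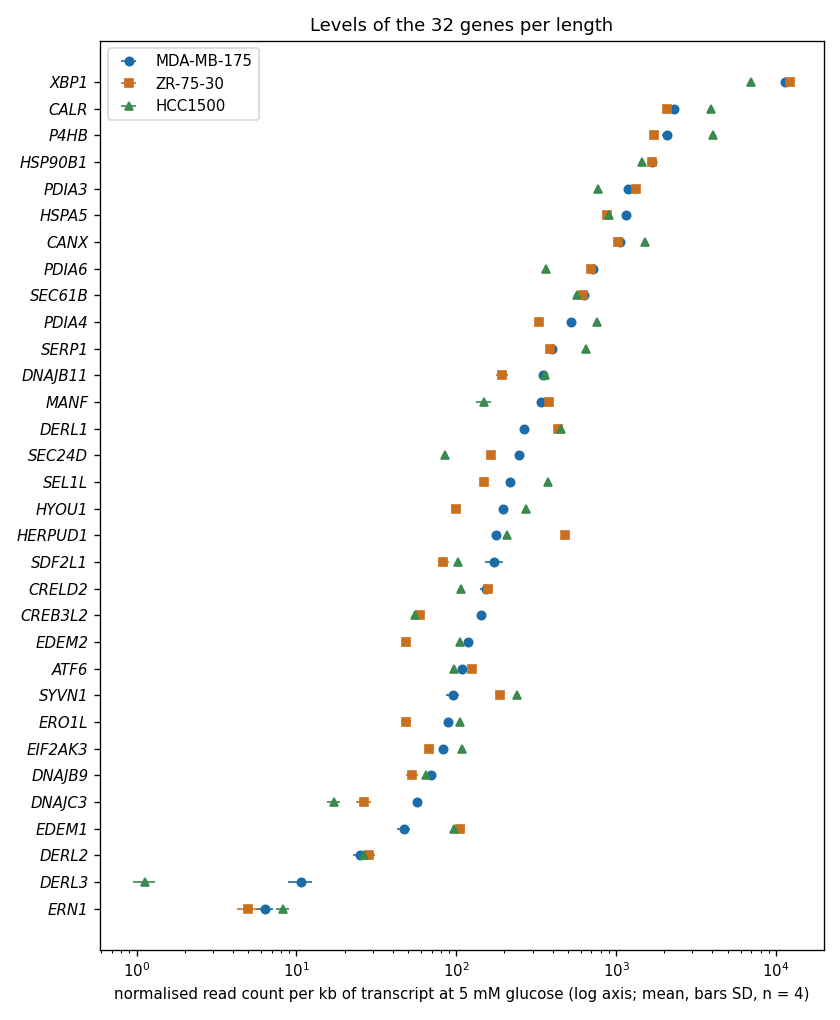
Normalised read count per kb of the canonical transcript at 5 mM glucose on a log axis, 1 row per gene, with circles for MDA-MB-175, squares for ZR-75-30 and triangles for HCC1500 (mean, bars SD, n = 4 cultures). XBP1 is on top in all 3 lines, ERN1 and DERL3 at the bottom, and DERL3 in ZR-75-30 is not drawn because it was listed at 0 in all 4 cultures.

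The question of the next comparison is whether 25 mM glucose moved these genes within a line. MDA-MB-175 cultures had 5 of the 32 genes called higher at 25 mM and 11 called lower, with a median log2 change of -0.07 against -0.02 over all genes tested. Of the 17029 genes tested there, 11.9% were called higher and 13.7% lower. In ZR-75-30, 9 of 31 tested rose and 14 fell, with a median of -0.10 against 0.01 over all genes, where 23.4% of 15834 genes were called higher and 22.7% lower. In HCC1500 with all 8 cultures, 3 rose and 1 fell, with a median of 0.14 against -0.06, and 7.46% of 16361 genes were called higher and 13.0% lower. Without replicate 3 at high glucose, 15 rose and 11 fell, with a median of 0.06 against -0.12, and 20.9% of 16235 genes were called higher and 37.7% lower. Rescaling by the median of ratios, which brought the median of all genes there to -0.01, turned the split of 15 and 11 into 19 and 6. Calls are at a limma adjusted p under 0.05, and changes are log2 differences of normalised read count plus 1, high minus low glucose.

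The conditions did not overlap for 16 of the 32 genes in MDA-MB-175 (6 higher and 10 lower at high glucose), against 26.6% of all genes tested. In ZR-75-30 this held for 18 (7 higher, 11 lower) against 42.0%. In HCC1500 it held for 14 of 32 with all cultures (9 higher, 5 lower) against 32.4%, and for 26 without replicate 3 (15 higher, 11 lower) against 58.1%. Nothing in the labels says whether the 4 cultures of a group were started independently, so the p-values measure the spread between these cultures, which may be technical.

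Called in the same direction in all 3 lines were DNAJB9 and HERPUD1, which rose, and PDIA4, which fell. Without HCC1500 replicate 3, ATF6 joined the genes that rose, and P4HB, PDIA3, PDIA6, SEL1L, XBP1 and CREB3L2 joined those that fell. Under the median-of-ratios rescaling of that setting, the calls of P4HB, PDIA6 and SEL1L were lost, and P4HB changed sign. CALR, ERO1L, DERL1, SEC61B and SERP1 were called in opposite directions in different lines without that culture, CALR alone with it. The shares of all genes called alike in all 3 lines, or in opposite directions, were not determined. These calls therefore describe the named genes only.

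**Figure D3:**
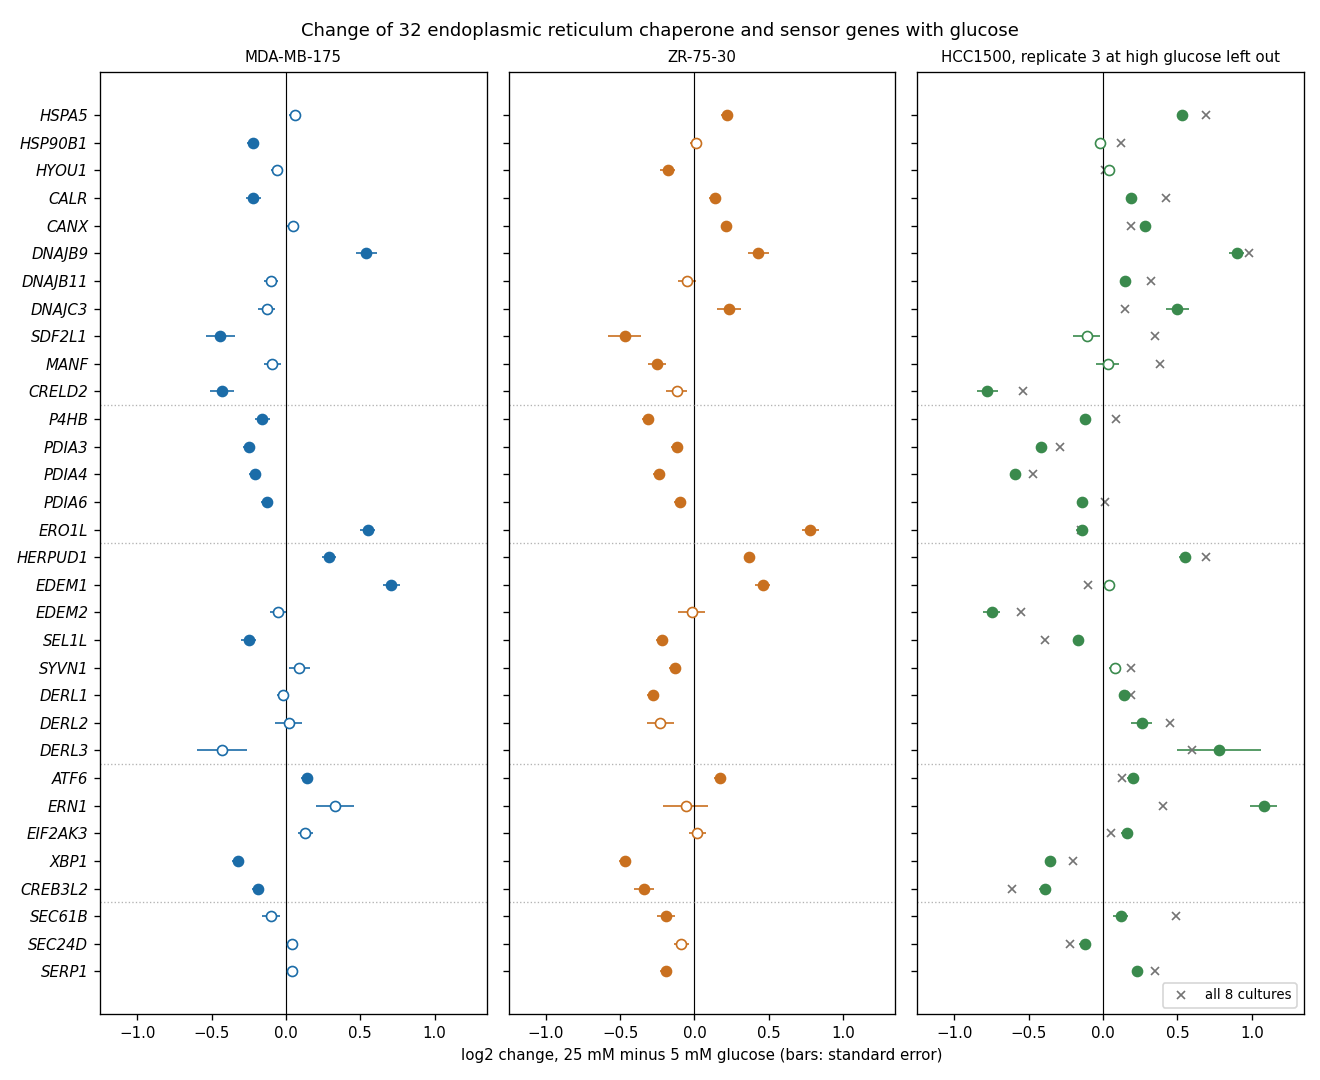
Change of each gene with glucose in the 3 lines, with 25 mM minus 5 mM on the log2 scale along the horizontal axis and bars for the standard error. Filled points passed the adjusted p limit, open points did not, crosses in the HCC1500 panel are the values with all 8 cultures, dotted lines part the 5 roles, and DERL3 was not tested in ZR-75-30. DNAJB9 and HERPUD1 lie right of 0 and PDIA4 and XBP1 left of 0 in each panel.

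Among the 11 lumenal chaperones and co-chaperones, 1 rose and 4 fell in MDA-MB-175 (all genes 11.9% and 13.7%), and 5 rose and 3 fell in ZR-75-30 (all genes 23.4% and 22.7%). In HCC1500, 2 rose and none fell with all cultures (all genes 7.46% and 13.0%), and 6 rose and 1 fell without replicate 3 (all genes 20.9% and 37.7%). Counts this small, such as 1 of 11 higher in MDA-MB-175 or 3 of 11 lower in ZR-75-30, lie near those shares. DNAJB9 (ERdj4), a J-domain co-chaperone that BiP works with, was the member of this role with the largest called rise in each line. In MDA-MB-175 it read 173, 164, 151 and 181 at low glucose and 258, 244, 248 and 222 at high glucose. In ZR-75-30 it read 127, 139, 114 and 131 and then 168, 169, 169 and 183. HCC1500 cultures read 154, 156, 161 and 152 and then 288, 293, 363 and 294, the third being the culture that stood apart. Every high glucose culture was above every low glucose culture of its line. The rise was 0.54 ± 0.07 (SE) log2 units in MDA-MB-175 (1.45-fold, adjusted p = 3.3e-05), 0.43 ± 0.07 in ZR-75-30 (adjusted p = 0.0001) and 0.98 ± 0.10 in HCC1500 (1.97-fold, adjusted p = 0.00032). Without replicate 3 it was 0.90 ± 0.05 (1.87-fold).

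HSPA5 encodes BiP, the main Hsp70 of the compartment. It read 4481, 4500, 4437 and 4603 at low glucose and 4842, 4866, 4570 and 4546 at high glucose in MDA-MB-175, where the groups overlapped. ZR-75-30 cultures read 3451, 3251, 3462 and 3540 and then 4138, 3937, 4142 and 3745. In HCC1500 the values were 3553, 3538, 3501 and 3474 and then 5075, 5226, 7932 and 4978. In ZR-75-30 and HCC1500 every high glucose culture was above the low glucose cultures. The change was 0.06 ± 0.04 in MDA-MB-175 (adjusted p = 0.264), 0.22 ± 0.04 in ZR-75-30 (adjusted p = 0.00019) and 0.69 ± 0.15 in HCC1500 (adjusted p = 0.0123), or 0.53 ± 0.02 without replicate 3.

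HSP90B1, the Hsp90 of the compartment (GRP94), did not go with HSPA5. In MDA-MB-175 it lay at 4613 to 4825 at low and at 3948 to 4115 at high glucose and fell by 0.22 ± 0.04 (adjusted p = 0.00021). Its change was 0.01 ± 0.04 in ZR-75-30 and, in HCC1500, 0.12 ± 0.13 with all cultures and -0.02 ± 0.03 without replicate 3, and none was called, though the last turned positive and was called under the median-of-ratios rescaling. Calreticulin (CALR) fell by 0.22 ± 0.05 in MDA-MB-175 and rose by 0.14 ± 0.04 in ZR-75-30, and in HCC1500 it rose by 0.19 ± 0.02 without replicate 3 and was not called with it (0.42 ± 0.21, adjusted p = 0.199). In HCC1500, CALR read 16402 in replicate 3 at high glucose against 8405 to 8617 in the others. Calnexin (CANX), its membrane-bound relative, rose by 0.21 ± 0.03 in ZR-75-30 and by 0.28 ± 0.02 in HCC1500 without replicate 3 (0.19 ± 0.11 and uncalled with it), while its change of 0.05 ± 0.04 in MDA-MB-175 was not called.

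SDF2L1, a partner of BiP and its J-domain co-chaperones, was lower at high glucose in 2 lines. It read 154, 158, 139 and 119 and then 99.8, 99.4, 102 and 117 in MDA-MB-175, a fall by 0.44 ± 0.10 (adjusted p = 0.00281). In ZR-75-30 it lay at 61.4 to 74.6 and then at 47.2 to 52.6, a fall by 0.47 ± 0.11 (adjusted p = 0.00191). In HCC1500 SDF2L1 was not called, at 0.35 ± 0.39 with all cultures and -0.11 ± 0.09 without replicate 3. CRELD2, a secreted-pathway protein induced by this stress, fell in MDA-MB-175 by 0.43 ± 0.08. In HCC1500 it read 157, 154, 155 and 146 and then 93.8, 86.6, 172 and 86.3, so that 3 of the 4 high glucose cultures were below the low glucose ones. In HCC1500 the difference was not called with all cultures (-0.54 ± 0.21, adjusted p = 0.11), and CRELD2 fell by 0.78 ± 0.07 without replicate 3 (adjusted p = 2.1e-08). MANF, a secreted stress-induced factor, fell in ZR-75-30 by 0.25 ± 0.06 and was called in no other line, with 0.38 ± 0.30 in HCC1500, or 0.03 ± 0.08 without replicate 3. DNAJC3 (p58IPK), a J-domain co-chaperone, rose in ZR-75-30 by 0.23 ± 0.08, a call kept in 5 of 8 fits that left out 1 culture and lost under scaling by the library total, and by 0.50 ± 0.08 in HCC1500 without replicate 3 (0.15 ± 0.30 and uncalled with it). DNAJB11 (ERdj3) had log2 differences of -0.10 in MDA-MB-175 and -0.05 in ZR-75-30, neither called, and rose by 0.15 ± 0.03 in HCC1500 without replicate 3 (0.32 ± 0.16 and uncalled with it). HYOU1 (GRP170), the exchange factor of BiP, fell by 0.18 ± 0.05 in ZR-75-30 (adjusted p = 0.0124, and up to 0.0519 with 1 culture left out) and was called in neither other line (-0.06 in MDA-MB-175, 0.01 in HCC1500 and 0.04 there without replicate 3).

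In MDA-MB-175 and ZR-75-30 the 4 disulfide isomerases and the oxidase that recharges them went different ways. Of all genes, 13.7% and 22.7% were called lower in these lines, and 11.9% and 23.4% higher. In HCC1500 without replicate 3 all 5 were called lower, where 37.7% of all genes were. Under the median-of-ratios rescaling of that setting the calls of P4HB, PDIA6 and ERO1L were lost. P4HB, PDIA3, PDIA4 and PDIA6 all fell in MDA-MB-175 and in ZR-75-30, and all fell in HCC1500 without replicate 3, with which P4HB (0.09 ± 0.19) and PDIA6 (0.01 ± 0.14) were uncalled. PDIA4 (ERp72) read 1500, 1448, 1453 and 1360 at low glucose and 1321, 1226, 1202 and 1246 at high glucose in MDA-MB-175. In ZR-75-30 the values were 910, 933, 934 and 880 and then 779, 737, 802 and 784. For HCC1500 the cultures gave 2097, 2170, 2072 and 2080 and then 1403, 1422, 1943 and 1366. The groups did not overlap in any line. Its log2 change was -0.21 ± 0.04 (adjusted p = 0.0023), -0.24 ± 0.04 (adjusted p = 8.8e-05) and -0.47 ± 0.12 (adjusted p = 0.0228), or -0.59 ± 0.03 without replicate 3. With all cultures the HCC1500 call was weak: leaving out any culture other than replicate 3 at high glucose ended it, with an adjusted p of up to 0.073.

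PDIA3 (ERp57), which works with calnexin and calreticulin, fell by 0.25 ± 0.04 in MDA-MB-175, by 0.12 ± 0.04 in ZR-75-30 and by 0.42 ± 0.03 in HCC1500 without replicate 3. With that culture, whose PDIA3 value of 3079 was above the low glucose range of 2786 to 2885, the change was -0.29 ± 0.13 and not called. P4HB fell by 0.31 ± 0.04 in ZR-75-30, where it lay at 4004 to 4412 at low and 3088 to 3525 at high glucose. In MDA-MB-175 its fall by 0.16 ± 0.05 kept its call in 2 of 8 fits that left out a culture. PDIA6 fell by 0.13 ± 0.04 in MDA-MB-175 and by 0.10 ± 0.04 in ZR-75-30, where the call held in 3 of 8 such fits and was lost under the median-of-ratios rescaling.

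ERO1L (ERO1A), the oxidase that passes electrons from the isomerases to oxygen, rose in 2 of the lines. It read 436, 452, 447 and 497 at low glucose and 681, 687, 675 and 639 at high glucose in MDA-MB-175. For ZR-75-30 the cultures gave 266, 264, 231 and 235 and then 445, 419, 408 and 443. In HCC1500 the values were 537, 519, 525 and 568 and then 491, 508, 477 and 466, with every high glucose culture below the low glucose ones. The rise was 0.55 ± 0.05 (1.46-fold, adjusted p = 6.2e-07) in MDA-MB-175 and 0.78 ± 0.06 (1.72-fold, adjusted p = 3.3e-09) in ZR-75-30. In HCC1500 the change was -0.15 ± 0.07 (adjusted p = 0.196) with all cultures and -0.14 ± 0.04 (adjusted p = 0.0101) without replicate 3, a call lost under the median-of-ratios rescaling.

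Of the 8 degradation factors, 2 rose and 1 fell in MDA-MB-175 (all genes 11.9% and 13.7%), and 2 rose and 3 fell of 7 tested in ZR-75-30 (all genes 23.4% and 22.7%). In HCC1500, 1 rose and none fell (all genes 7.46% and 13.0%), and without replicate 3, 4 rose and 2 fell (all genes 20.9% and 37.7%). Several of these counts, such as 1 of 8 lower in MDA-MB-175, lie near the share of all genes. HERPUD1, a membrane protein that gathers the ubiquitin ligase complex, read 500, 515, 502 and 505 at low glucose and 652, 605, 588 and 626 at high glucose in MDA-MB-175. In ZR-75-30 it read 1356, 1367, 1426 and 1347 and then 1812, 1776, 1839 and 1701. HCC1500 cultures read 597, 574, 612 and 600 and then 829, 917, 1273 and 879. No value at high glucose fell into the low glucose range of its line. It rose by 0.29 ± 0.05 (adjusted p = 0.00018), 0.37 ± 0.04 (adjusted p = 1.4e-07) and 0.69 ± 0.13 (adjusted p = 0.0074), or 0.55 ± 0.04 in HCC1500 without replicate 3.

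EDEM1 and EDEM2 trim mannose from misfolded glycoproteins and so mark them for disposal. EDEM1 read 262, 310, 267 and 310 and then 471, 472, 483 and 451 in MDA-MB-175. ZR-75-30 cultures read 648, 707, 642 and 605 and then 950, 869, 864 and 906. In HCC1500 it read 598, 568, 603 and 608 and then 628, 608, 420 and 593. The high glucose cultures were above all low glucose cultures in the first 2 lines and overlapped them in HCC1500. EDEM1 rose by 0.71 ± 0.06 (1.64-fold, adjusted p = 3.8e-07) and by 0.46 ± 0.05 (1.38-fold, adjusted p = 3.1e-07), and its difference was -0.10 ± 0.13 in HCC1500 and 0.04 ± 0.04 without replicate 3 (adjusted p = 0.654 and 0.42), or 0.16 and called higher there under the median-of-ratios rescaling. EDEM2 read 200, 197, 197 and 202 and then 115, 117, 209 and 121 in HCC1500. Its changes of -0.05 and -0.02 in the other lines were not called, while in HCC1500 it fell by 0.75 ± 0.06 without replicate 3 (adjusted p = 3.1e-09), and the change with all cultures, -0.55 ± 0.19, was not called (adjusted p = 0.0728).

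SEL1L, the scaffold of the ubiquitin ligase SYVN1 (HRD1), fell by 0.25 ± 0.05 in MDA-MB-175 and by 0.22 ± 0.04 in ZR-75-30. In HCC1500 SEL1L fell by 0.17 ± 0.03 without replicate 3, in which it read 1418 against 2593 to 2692 in the other high glucose cultures, and with it was not called (-0.39 ± 0.20, adjusted p = 0.2). SYVN1 itself fell by 0.13 ± 0.04 in ZR-75-30, a call kept in 5 of 8 fits without 1 culture and lost under the median-of-ratios rescaling, and was called in neither other line, with 0.19 ± 0.12 in HCC1500 and 0.08 ± 0.04 without replicate 3. DERL1 and DERL2 belong to the family that draws proteins out of the membrane. DERL1 lay at 1337 to 1423 and then at 1108 to 1197 in ZR-75-30 and fell by 0.28 ± 0.04 (adjusted p = 7.9e-06). In HCC1500 it rose by 0.14 ± 0.03 without replicate 3 (0.19 ± 0.08 and uncalled with it), and in MDA-MB-175 its change of -0.02 ± 0.04 was not called. DERL2 rose by 0.26 ± 0.07 in HCC1500 without replicate 3 (0.45 ± 0.19 and uncalled with it), with changes of 0.02 and -0.23 in the other lines, neither called. DERL3 was listed at 0 in every ZR-75-30 low glucose culture, and 1 read was counted over the 4 high glucose cultures of that line. In MDA-MB-175 it read 25.4 to 38.1 and then 20.4 to 29.4, and in HCC1500 3.07 to 4.31 and then 3.71 to 7.46, a difference of 0.60 ± 0.24 that was not called and a rise by 0.78 ± 0.28 without replicate 3. The DERL3 gene shares 2747 exon bases with SMARCB1 on the opposite strand, and strand use in the counting of the cell lines is not given in the sources used here, so its values are uncertain.

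Of the 5 sensors and transcription factors, ATF6 rose by 0.17 ± 0.04 in ZR-75-30, by 0.14 ± 0.04 in MDA-MB-175 and by 0.20 ± 0.04 in HCC1500 without replicate 3 (0.13 ± 0.09 and uncalled with it). The ATF6 call in MDA-MB-175 was lost without high glucose replicate 2 (highest adjusted p = 0.0666). ERN1, the gene of the sensor IRE1 alpha, read 61.2, 72.1, 59.4 and 66.3 at low glucose and 140, 130, 20 and 141 at high glucose in HCC1500. In 3 of its high glucose cultures it was thus far above the low glucose range, and replicate 3 was far below it. The change was 0.40 ± 0.57 with all cultures (adjusted p = 0.682) and 1.08 ± 0.09 without replicate 3 (2.11-fold, adjusted p = 6.5e-09), the largest rise among the 32 genes in that fit. ERN1 read 41.5 to 55.2 and then 53.3 to 74.1 in MDA-MB-175, a change of 0.33 ± 0.13 that was not called (adjusted p = 0.0686). In ZR-75-30 its change was -0.06 ± 0.15. EIF2AK3, the gene of PERK, rose by 0.16 ± 0.04 in HCC1500 without replicate 3 (0.05 ± 0.11 and uncalled with it) and differed by 0.02 ± 0.06 in ZR-75-30 and 0.13 ± 0.05 in MDA-MB-175, uncalled in both (adjusted p = 0.784 and 0.0684).

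XBP1, the most abundant of the 32 per length, was lower at high glucose. In MDA-MB-175 it read 20507, 20247, 20127 and 20335 at low glucose and 17052, 16195, 15813 and 16199 at high glucose. In ZR-75-30 the values were 21669, 21487, 22142 and 22151 and then 16481, 15659, 15850 and 14963. For HCC1500 the cultures gave 12376, 12596, 12501 and 12282 and then 9565, 9917, 15079 and 9614. All high glucose cultures but HCC1500 replicate 3 were below all low glucose cultures of their line. The fall was by 0.32 ± 0.04 (0.803-fold, adjusted p = 2.2e-05), by 0.47 ± 0.04 (0.720-fold, adjusted p = 1.7e-08), and in HCC1500 by 0.36 ± 0.02 without replicate 3 (0.780-fold, adjusted p = 1.6e-10). With all HCC1500 cultures it was -0.20 ± 0.15 and not called (adjusted p = 0.406). CREB3L2, a membrane-bound relative of ATF6, fell by 0.19 ± 0.04, by 0.34 ± 0.07 and, without HCC1500 replicate 3, by 0.39 ± 0.04, and with that culture it was not called (-0.61 ± 0.20, adjusted p = 0.0613). Its value in that replicate was 168, below the 304 to 324 of the other high glucose cultures.

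**Figure D4:**
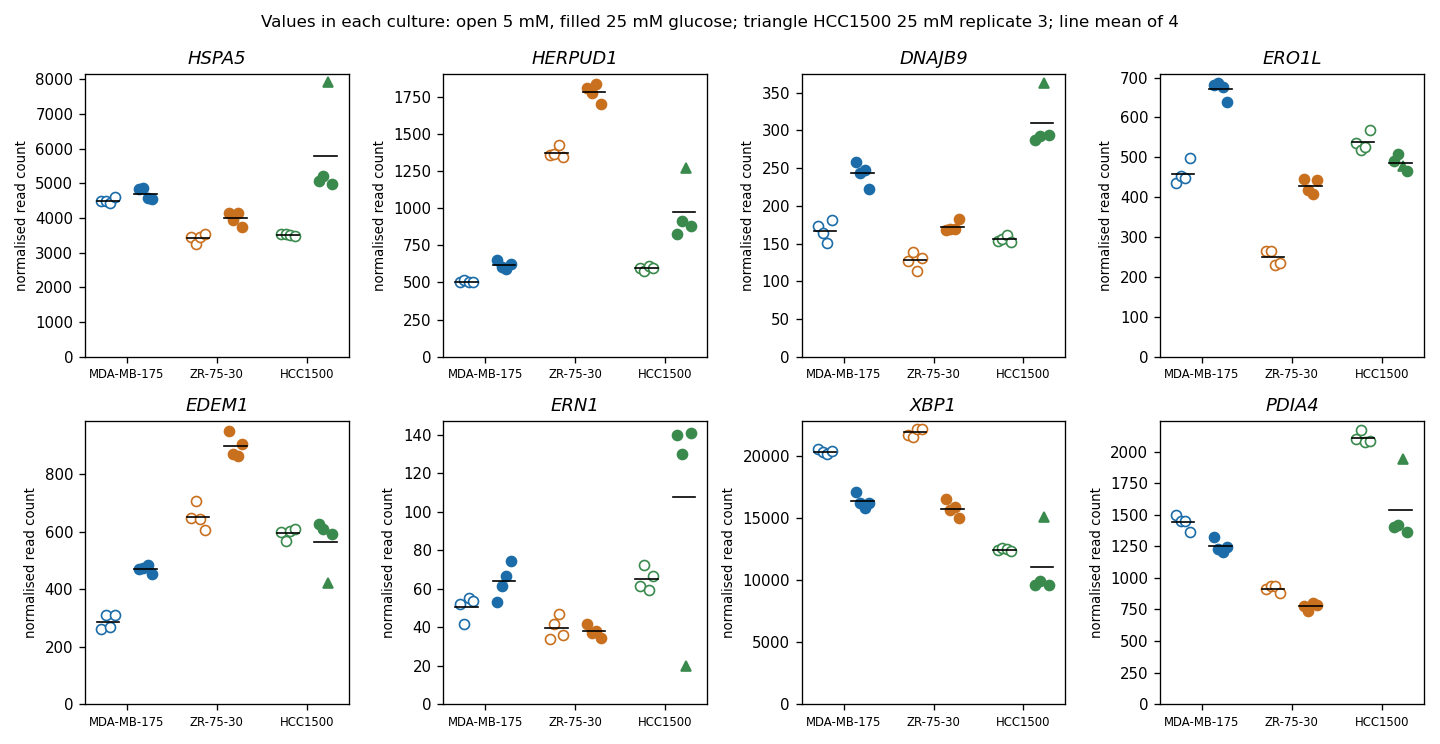
Normalised read counts of 8 genes in each of the 24 cultures, with open symbols for 5 mM and filled symbols for 25 mM glucose, a triangle for HCC1500 high glucose replicate 3 and a horizontal line for the mean of 4. HSPA5, HERPUD1 and DNAJB9 are higher at 25 mM in HCC1500, XBP1 and PDIA4 lower at 25 mM in the first 2 lines, and ERO1L and EDEM1 higher at 25 mM in the first 2 lines.

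For translocation and export, SERP1 (RAMP4) and SEC61B belong to the channel through which new proteins enter, and SEC24D to the COPII coat that carries them out. None was called in MDA-MB-175. SERP1 fell by 0.19 ± 0.04 in ZR-75-30, where it lay at 1128 to 1197 and then at 993 to 1081, and rose by 0.23 ± 0.03 in HCC1500 without replicate 3 (0.35 ± 0.12 and uncalled with it). SEC61B fell by 0.19 ± 0.06 in ZR-75-30 and rose by 0.12 ± 0.05 in HCC1500 without replicate 3 (0.49 ± 0.31 and uncalled with it), where it read 960 in replicate 3 against 347 to 350. SEC24D was called only in HCC1500 without replicate 3 (-0.12 ± 0.04, against -0.22 ± 0.11 and uncalled with it), a call lost under both other scalings and reversed in sign, without a call, under the median of ratios.

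Ratios between members within a culture do not depend on the scaling. These pairs were chosen after their values were seen, so they are a description with no test. HSPA5 over HSP90B1 was 0.965, 0.956, 0.962 and 0.954 at low glucose and 1.18, 1.21, 1.16 and 1.13 at high glucose in MDA-MB-175. In ZR-75-30 it was 0.749, 0.731, 0.716 and 0.727 and then 0.874, 0.827, 0.867 and 0.802. In HCC1500 it was 0.857, 0.890, 0.872 and 0.875 and then 1.30, 1.29, 1.36 and 1.24. BiP mRNA thus stood higher against GRP94 mRNA in every high glucose culture, and for this pair, with transcripts of 3921 and 2782 bases, HCC1500 replicate 3 lay close to its group. DNAJB9 over PDIA4 went from 0.116 ± 0.0122 to 0.195 ± 0.0120 in MDA-MB-175, from 0.140 ± 0.0127 to 0.223 ± 0.0108 in ZR-75-30 and from 0.0741 ± 0.00258 to 0.203 ± 0.0119 in HCC1500, without overlap.

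**Figure D5:**
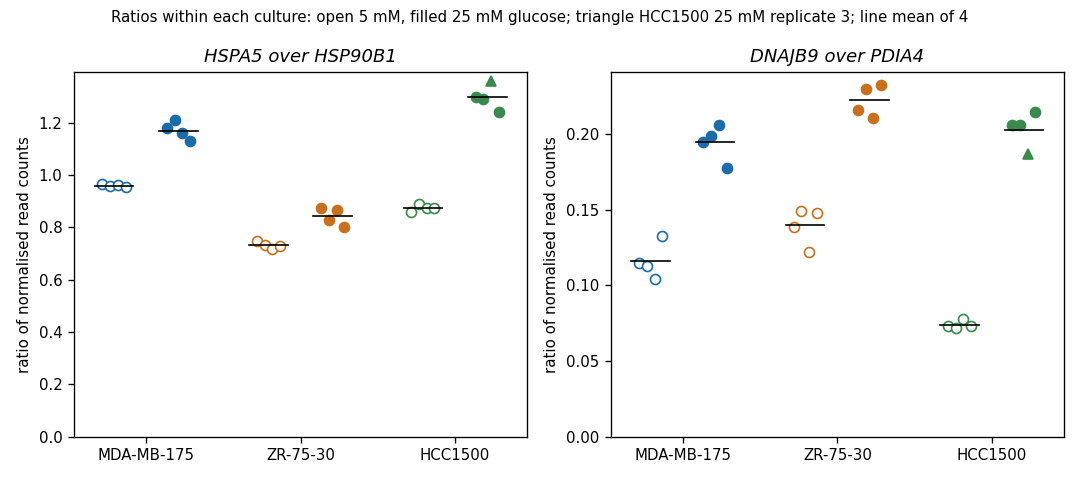
Ratio of the normalised read counts of HSPA5 and HSP90B1 (left) and of DNAJB9 and PDIA4 (right) within each culture, open for 5 mM and filled for 25 mM glucose, with a triangle for HCC1500 high glucose replicate 3 and a line for the mean of 4. Both ratios are higher in every 25 mM culture than in any 5 mM culture of the same line.

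The genes with the endoplasmic reticulum stress element did not move as a block. Among the 8, HSPA5 rose in ZR-75-30, where XBP1 fell, and HSPA5 rose in HCC1500 without replicate 3, where XBP1 and CRELD2 fell. In MDA-MB-175 their median change was -0.18 with 5 called lower and none higher (all genes 13.7% and 11.9%). The other 20 matched genes had a median of -0.06 there with 5 called each way. In ZR-75-30 the medians were -0.05 and -0.10. Of the 8, 3 were called each way, and of the 20, 6 higher and 9 lower (all genes 23.4% and 22.7%). In HCC1500 the medians were 0.16 and 0.14, with 1 higher and none lower, and 2 and 1 (all genes 7.46% and 13.0%). Without replicate 3 they were 0.08 and 0.06, with 4 higher and 3 lower, and 9 and 6 (all genes 20.9% and 37.7%). Several of these counts, such as 3 of 8 lower without replicate 3, lie near the share of all genes. HERPUD1 and SDF2L1, which share the second form of the element, rose and fell respectively in MDA-MB-175 and ZR-75-30.

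Whether the change with glucose differed between lines was tested by an F test on the interaction in limma. It passed for 11 of the 32 genes, against 29.3% of 18144 genes tested, and for 25 without HCC1500 replicate 3, against 48.6%. The smallest adjusted p among the 32 was that of ERO1L, 4.8e-08 with all cultures and 1.9e-09 without replicate 3. Its change in HCC1500 was lower than in MDA-MB-175 by 0.70 and lower than in ZR-75-30 by 0.93 log2 units (adjusted p = 2.1e-06 and 2.6e-08), or by 0.69 and 0.92 without replicate 3. The change of EDEM1 was also lowest in HCC1500, with differences of 0.81 for MDA-MB-175 minus HCC1500 and 0.56 for ZR-75-30 minus HCC1500 (adjusted p = 0.00012 and 0.00263), or 0.67 and 0.43 without replicate 3. The change of DERL1 in ZR-75-30 was lower than in both others, with a difference of 0.25 for MDA-MB-175 minus ZR-75-30 (adjusted p = 0.0152) and of -0.47 for ZR-75-30 minus HCC1500 (adjusted p = 1.8e-05), the latter -0.41 without replicate 3. DNAJB9 rose more in HCC1500 than elsewhere, with differences of -0.44 for MDA-MB-175 minus HCC1500 and -0.54 for ZR-75-30 minus HCC1500 (adjusted p = 0.00723 and 0.00085), or -0.36 and -0.47 without replicate 3. For HSPA5 the same differences were -0.63 and -0.47 (adjusted p = 0.00192 and 0.0117), or -0.47 and -0.31 without replicate 3 (adjusted p = 6e-08 and 1.3e-05). For ERN1 the difference of the changes, ZR-75-30 minus HCC1500, was -1.13 without replicate 3 (adjusted p = 8.6e-06), and with it the F test gave an adjusted p of 0.774. For PDIA6, SEL1L, ATF6, EIF2AK3, MANF, P4HB and CREB3L2 the F test was not passed with or without replicate 3.

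At low glucose the lines themselves differed by at least 1 log2 unit, with a limma adjusted p under 0.05, in few of the 32 genes. MDA-MB-175 and ZR-75-30 differed in 7 (5 higher in MDA-MB-175), against 33.1% of 17739 genes tested. MDA-MB-175 and HCC1500 differed in 7 (5 higher in MDA-MB-175), against 42.7%, and ZR-75-30 and HCC1500 in 9 (2 higher in ZR-75-30), against 45.1%. HERPUD1 was highest in ZR-75-30, 2.72-fold above MDA-MB-175 (log2 -1.44 ± 0.03 for MDA-MB-175 minus ZR-75-30) and 2.30-fold above HCC1500 (log2 1.20 ± 0.03 for ZR-75-30 minus HCC1500). EDEM1 was lowest in MDA-MB-175, with log2 differences of -1.18 ± 0.06 from ZR-75-30 and -1.05 ± 0.06 from HCC1500. At high glucose the first of these was -0.93, and EDEM1 averaged 469 ± 13.5 in MDA-MB-175 and 562 ± 96.2 in HCC1500, or 610 ± 17.3 without replicate 3. CREB3L2 was 2.42-fold and 2.60-fold higher in MDA-MB-175 than in ZR-75-30 and HCC1500, DNAJC3 2.15-fold and 3.30-fold. SEC24D was 2.92-fold higher in MDA-MB-175 than in HCC1500. SEL1L, P4HB, PDIA4, HYOU1, ERO1L and EDEM2 were 2.16-fold to 2.73-fold lower in ZR-75-30 than in HCC1500. For ERO1L the log2 difference was -1.11 ± 0.06 at low glucose and -0.18 at high glucose. Against the floor of 3 reads in ZR-75-30, DERL3 was at least 14.5-fold higher in MDA-MB-175 and at least 1.53-fold higher in HCC1500, with the doubt about its strand given above.

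Outside the 32 genes, 155 further genes of the pathway were listed in 7 groups, counted under 156 identifiers because ALG9 has 2. These lists too were written with earlier results of these data known, so the counts below are a description with no test. Of 155 identifiers tested in MDA-MB-175, 28 were called higher and 15 lower, beside 11.9% and 13.7% of all genes. In ZR-75-30 it was 34 and 54 of 153, the former near the 23.4% of all genes and the latter beside 22.7%. In HCC1500 it was 25 and 12 of 155 (all genes 7.46% and 13.0%), and without replicate 3 it was 59 and 59, where the number called lower was near the 37.7% of all genes and the number called higher stood beside 20.9%. The 13 genes of PERK output and stress factors had the largest medians in MDA-MB-175 and HCC1500. In MDA-MB-175 the median was 0.57 with 12 called higher and none lower (all genes 11.9% and 13.7%). In HCC1500 it was 0.72 with 7 called higher and none lower (all genes 7.46% and 13.0%). Without replicate 3 it was 0.51 with 11 called higher and none lower (all genes 20.9% and 37.7%). In ZR-75-30 the median was -0.02, with 6 called higher and 3 lower (all genes 23.4% and 22.7%), and 3 of 13 is near the latter. The 24 translocon genes had 5 called higher and 10 lower in ZR-75-30 and 13 higher and 5 lower in HCC1500 without replicate 3, against the same shares of all genes, and 5 of 24 is near the 23.4% for ZR-75-30. In MDA-MB-175 they had 3 called higher and 4 lower, near the 11.9% and 13.7% of all genes. With all HCC1500 cultures they had 4 called higher and none lower (all genes 7.46% and 13.0%). The N-glycosylation list had 2 called higher and 10 lower of 24 tested in ZR-75-30, against 23.4% and 22.7% of all genes. In HCC1500 without replicate 3 it had 6 and 12 of 24, against 20.9% and 37.7%, and 6 of 24 is near the former. With all HCC1500 cultures it had 3 and 2 of 24 (all genes 7.46% and 13.0%). In MDA-MB-175 it had none called higher and 3 of 24 lower (all genes 11.9% and 13.7%), the latter near its share.

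By the naming rule, the 3 largest rises and falls per line were as follows. In MDA-MB-175 the stress factor NUPR1 went from 47.6 ± 11.4 to 159 ± 9.71 (log2 change 1.75 ± 0.13), ATF3 from 25.6 ± 2.59 to 81.0 ± 2.07, and DDIT3 (CHOP) from 48.4 ± 3.35 to 106 ± 8.72. CREB3L4 fell from 1268 ± 81.3 to 842 ± 63.3 and CREB3L1 from 1415 ± 106 to 1072 ± 24.8, both relatives of CREB3L2, and TRAM2 fell from 543 ± 18.3 to 419 ± 18.6. In ZR-75-30 the largest rises were those of ATF3 (3.85 ± 2.51 to 41.4 ± 2.54), of PPP1R15A (GADD34), which restores translation after PERK (134 ± 5.37 to 414 ± 22.9), and of DDIT3 (82.5 ± 8.76 to 188 ± 4.83). ASNS and TRIB3, both known targets of ATF4, fell there, ASNS from 306 ± 10.6 to 193 ± 15.6 and TRIB3 from 1995 ± 54.2 to 1268 ± 79.6, and DNAJC10 (ERdj5) fell from 2240 ± 77.1 to 1420 ± 49.1. In HCC1500 with all cultures the rises were those of NUPR1 (1.28 ± 0.32), PPP1R15A (1.11 ± 0.15) and DDIT3 (1.04 ± 0.28), and the falls those of PDIA5 (-0.95 ± 0.16), UGGT1 (-0.69 ± 0.18) and UGGT2 (-0.66 ± 0.11), the latter a pair of folding sensors of glycoproteins. DDIT3 went there from 208 ± 6.64 to 467 ± 247, and UGGT1 from 1152 ± 40.0 to 734 ± 179, with replicate 3 included. Values of DDIT3, UGGT1 and UGGT2 without replicate 3 are not given here. Without replicate 3 the rule gave BHLHA15 (0.98 ± 0.34, from 3.24 ± 1.40 to 6.93 ± 0.790), PPP1R15A (0.95 ± 0.05) and NUPR1 (0.91 ± 0.05), and PDIA5 (-1.08 ± 0.10), CREB3L4 (-1.02 ± 0.05) and GMPPB (-0.73 ± 0.10).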

How the data were processed

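The authors deposited 1 table of normalised expression signal for 24 RNA-Seq samples. Trimmomatic, TopHat, Ensembl gene models and the build hg19 are named in the study's methods for its RNA-Seq, whereas the submitters' processing notes name edgeR and hg38. Which of them applies to these cultures is not given in the sources used here. Values were whole reads divided by 1 factor per sample (100% of values came out whole within 0.01 reads), not CPM, since column totals were 5559394 to 7594840. One read was worth 0.3176 to 0.7635, and reads per culture were 9140024 to 17998819.

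Groups came from the sample titles and labels. Values were tested as log2(value + 1) with limma 3.58.1 in R 4.3.3, after a filter of at least 0.5 in 4 samples. There was 1 fit per line for glucose and 1 fit over all cultures for the interaction. The lines were compared in 1 fit over the low glucose cultures alone. p-values were adjusted over all genes tested (Benjamini-Hochberg). This scale understates the change of low genes. The alternatives were pseudocounts of 0.5 and 5, no filter, median-of-ratios and CPM rescaling, edgeR 4.0.16 and DESeq2 1.42.0 on the recovered reads, a replicate block, array weights, removal of a trend with transcript length, and each culture left out. The scripts were tested on simulated data. Named were all 32 genes and, of the other pathway genes, the 3 largest called rises and falls per line without overlap. The members and lists were chosen with earlier results of these data known. Transcript lengths and shared exon bases came from GENCODE 44 lifted to GRCh37, and the 4 genes without a RefSeq promoter were not searched. Exon bases were shared with another gene for 14 of the 32 genes. The 21 marker genes for other cell types and for luminal cells were checked, 15 of them in the table.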

Additional observations from a re-analysis of the deposited data

Results flagged for a closer look

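Of 191 groups of 4 cultures examined over the 32 genes, 30 held a culture whose gap to its nearest neighbour was past the 95% critical value of Dixon's test, where chance gives about 1 in 20. Of these, 24 were HCC1500 high glucose replicate 3, which was high for HSPA5 (7932), HSP90B1 (5849), CALR (16402), DNAJB9 (363), DNAJB11 (1054), SDF2L1 (281), MANF (359), CRELD2 (172), P4HB (16021), PDIA3 (3079), PDIA4 (1943), PDIA6 (1129), EDEM2 (209), DERL2 (227), XBP1 (15079), SEC61B (960) and SERP1 (3209). The same culture was low for DNAJC3 (51.2), EDEM1 (420), SEL1L (1418), ATF6 (670), ERN1 (20), EIF2AK3 (410) and CREB3L2 (168). The other 6 were spread over 5 cultures: DNAJB9 (183) and P4HB (3088) in ZR-75-30 high glucose replicate 4, DERL3 (0.521, 1 read) in ZR-75-30 high glucose replicate 1, SDF2L1 (117) in MDA-MB-175 high glucose replicate 4, PDIA6 (1512) in MDA-MB-175 high glucose replicate 1 and SEC24D (1046) in MDA-MB-175 high glucose replicate 2.

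The response to glucose differed between the lines, by the limma F test over all cultures, for ERO1L (adjusted p = 4.8e-08), DERL1 (5.4e-05), EDEM1 (0.00017), DNAJB9 (0.00137), SERP1 (0.00176), HSPA5 (0.00245), DERL3 (0.0227), DERL2 (0.024), HERPUD1 (0.028), EDEM2 (0.0359) and CALR (0.0388). The sign was the same in all 3 lines for DNAJB9, HERPUD1, HSPA5 and EDEM2, of which HSPA5 was not called in MDA-MB-175 and EDEM2 in no line with all cultures. Of these genes, CALR, ERO1L, DERL1, DERL2, DERL3, EDEM2 and SERP1 were called in HCC1500 without high glucose replicate 3 and not with it.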

How the results depend on the processing

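In MDA-MB-175 and ZR-75-30 the numbers of the 32 genes called stayed within 1.5 times under each alternative, and with 1 culture left out they were 4 to 6 higher and 10 to 12 lower in MDA-MB-175 and 8 to 9 and 12 to 14 in ZR-75-30. In HCC1500, 3 higher and 1 lower became 7 and 2 by median of ratios, 5 and 5 by CPM, 8 and 2 by edgeR, 9 and 4 by DESeq2, 14 and 11 with array weights and 8 and 6 with the length trend removed. With 1 HCC1500 culture left out the range was 3 to 15 higher and 0 to 11 lower, the highest of each without high glucose replicate 3, and leaving out any other culture left PDIA4 uncalled. In fits added after seeing the data, all without that culture, 15 and 11 became 19 and 6 by edgeR, 18 and 6 by DESeq2, 19 and 6 by median of ratios, and 16 and 10 by CPM. P4HB changed from 0.09 to -0.12 in HCC1500 with array weights, to -0.10 by CPM without replicate 3, and ranged from -0.12 to 0.16 over fits with 1 culture left out. PDIA6 changed from 0.01 to -0.14, -0.12 and a range of -0.14 to 0.07 likewise. EDEM1 in HCC1500, -0.10, was called at 0.15 by edgeR, 0.16 by DESeq2 and 0.16 by median of ratios without replicate 3. The number of genes whose response differed between lines, 11, was 25 without HCC1500 replicate 3, 18 by median of ratios and 19 by CPM. It was 8 with the replicate number as a block and stayed at 11 with a pseudocount of 5. The numbers differing between lines at low glucose stayed at 7, 7 and 9 with any replicate number left out and by median of ratios. They were 9, 8 and 10 by CPM and 6, 7 and 8 with a pseudocount of 5. Among the high glucose cultures the numbers were 6, 8 and 9. Without replicate 3 the shares of all genes called also rose. In HCC1500 they went from 7.46% to 20.9% higher and from 13.0% to 37.7% lower. In the interaction test they went from 29.3% to 48.6%. Such shares are not given here for the other alternatives. Whether these changes are particular to the 32 genes, and what caused them, was not tested.

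The replicate numbers did not pair the samples: mean correlations of same-numbered deviations were 0.0504, 0.0424 and 0.0184. With the replicate number as a block, 3 were higher and 0 lower in HCC1500, and without replicate 3, 14 and 10, with P4HB at -0.13 and PDIA6 at -0.15. Genes near the floor of 3 reads, DERL3 above all, are limited by depth, and HCC1500 low and high glucose cultures differed in depth throughout.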
